A study of Ovis aries with 8 samples.

Results

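The epithelial sodium channel and the sodium pump move sodium across lung epithelium, and their subunits were followed here in the fetal lung after aldosterone. Members were the non-control probes whose gene name or description in the scanner files gave a subunit of either protein, or whose transcript accession RefSeq assigns to a named subunit. Reported here are 5 genes among the 840 named on the array, read by 8 of its 15008 probes: 4 probes of the channel subunits SCNN1A, SCNN1B and SCNN1G, and 4 probes of the pump subunit ATP1B1 and of a pump gamma subunit. Of the 8 probes, 4 were found by gene name and 2 by description. The other 2 were the ATP1B1 probes, which the files name only as an ATPase beta subunit. The gamma subunit is called by its description, since the RefSeq table pairs its gene ID with FXYD6, another member of the FXYD family, and the gene is therefore not settled.

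The series holds 8 lungs of sheep fetuses from 4 sets of twins, taken at about 130 days of a 147-day pregnancy. Within each set 1 fetus was given 0.2 mg of aldosterone over 48 hours (4 lungs) and the other was given vehicle (4 control lungs). All 8 fetuses had undergone surgery, with infusions begun 5 days later, and no genetic change was part of either group. RNA of whole lung was labelled with Cy3 and hybridised to 1-colour arrays. In such bulk tissue, fewer cells of a type and less RNA per cell cannot be told apart. The breed and sex of the fetuses are not given in the sources used here.

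Before birth the lung epithelium secretes fluid into the airspaces, and around birth it changes to absorbing it. Sodium enters the cell through the channel in the apical membrane, a complex of an alpha (SCNN1A), a beta (SCNN1B) and a gamma subunit (SCNN1G), and leaves through the pump in the basolateral membrane. The beta subunit of the pump (ATP1B1) is needed for its folding and delivery to the membrane, and small FXYD proteins adjust its kinetics. In kidney and colon, aldosterone acting on the mineralocorticoid receptor is a classical stimulus of both proteins. The comparison asks whether their transcripts respond to aldosterone in the late-gestation lung.

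The sequences that carried these measurements are printed as the array files give them, each 60 bases long and written 5′ to 3′. They are shown because each channel subunit was read by a single stretch of sequence: the pair of SCNN1A probes starts at bases 923 and 924 of the transcript and shares 59 bases, marked in capitals, so it tests the reading of 1 site and not of separate parts of the gene. The SCNN1B probe starts at base 603 of its transcript and the SCNN1G probe at 790.
SCNN1A at 923: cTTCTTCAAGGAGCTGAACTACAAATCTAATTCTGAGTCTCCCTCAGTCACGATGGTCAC
SCNN1A at 924: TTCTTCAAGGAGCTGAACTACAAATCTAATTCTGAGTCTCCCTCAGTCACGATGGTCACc
SCNN1B at 603: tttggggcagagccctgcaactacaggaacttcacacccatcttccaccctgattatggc
SCNN1G at 790: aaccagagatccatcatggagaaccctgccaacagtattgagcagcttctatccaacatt
The ATP1B1 probes start at bases 2449 and 2509, lie end to end and share 0 bases. The gamma subunit probes start at 191 and 195 and share 56 of 60 bases. Parts of a transcript outside these sites were not measured.

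Levels are given as the log2 processed signal less the 75th percentile of the array, so that 0 is a spot at that percentile and negative values are dimmer spots. Probes differ in brightness, so levels are compared between lungs and never between genes. Across the arrays 76.44% to 85.38% of spots were well above background in the scanner software's own call, with a 75th percentile of 10.23 to 10.73 in log2 units. The lung label was borne out by the surfactant protein genes SFTPA1, SFTPB, SFTPC and SFTPD, all 4 well above background on all 8 arrays. With 4 arrays in each group, the number of arrays sets how precise a value can be. Of the 8 member probes, 7 were well above background on all 8 arrays, and SCNN1G was so on 2 arrays of each group.

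None of the channel and pump subunits reported here was shown to change with aldosterone. In limma, 0 of the 8 probes passed an adjusted p of 0.05, where 0.0% of the 12170 probes tested passed. At an unadjusted p under 0.05 the members again gave 0 of 8, beside 228 probes or 1.87% of all, and with the replicate number added as a block 0 of 8, beside 539 probes or 4.43%. The 2 groups overlapped for all 8 members. Over all probes, the aldosterone lungs lay wholly above the controls for 0.855% and wholly below for 0.452%. No member was higher in the aldosterone lung of all 4 same-numbered pairs (0 of 8, beside 7.67% of all probes), and none was lower in all 4 (0 of 8, beside 5.64%). By the brightest probe of each of the 5 genes, 4 means were higher and 1 lower after aldosterone with a median log2 difference of 0.09, beside a median of 0.0073 over all probes tested.

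SCNN1A encodes the alpha subunit, without which the channel carries little current. In the aldosterone lungs of replicates 1 to 4 its probe at 923 had levels of -4.73, -5.03, -5.32 and -4.77. In the control lungs of replicates 1 to 4 it had levels of -4.73, -5.00, -5.56 and -5.02. Both lungs of replicate 3 were the lowest of their group, and both lungs of replicate 1 the highest. The log2 difference was 0.11 ± 0.21 (limma SE, n = 4 per group, adjusted p = 1.0), with a 95% interval from 0.776-fold to 1.50-fold. With the replicate number as a block the interval was 0.888-fold to 1.31-fold.

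The probe at 924, a single base further along, gave levels of -4.81, -5.50, -5.68 and -4.84 after aldosterone and -4.67, -5.05, -6.04 and -5.04 in the controls. Its log2 difference was -0.0071 ± 0.32 (SE, n = 4 per group, adjusted p in limma 1.0). Both SCNN1A probes thus put replicate 3 lowest, but they did not give the same reading on every array. The level at 923 less that at 924 was 0.47 and 0.36 in the aldosterone lungs of replicates 2 and 3 and 0.48 in the control lung of replicate 3, and lay between -0.06 and 0.08 on the other 5 arrays. This gap of up to 0.48 was larger than the difference between the groups on either probe.

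SCNN1B, the beta subunit, which with gamma raises the number of channels at the cell surface, had levels of -3.50, -3.22, -2.60 and -2.96 in the aldosterone lungs of replicates 1 to 4. The control lungs had levels of -3.39, -3.14, -2.95 and -3.17. Replicate 3 was the highest of each group and replicate 1 the lowest, the opposite end of the order from SCNN1A. The log2 difference was 0.09 ± 0.21 (SE, n = 4 per group, adjusted p in limma 1.0), with a 95% interval from 0.773-fold to 1.47-fold. With the replicate number as a block the interval was 0.857-fold to 1.33-fold.

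SCNN1G, the gamma subunit, is a target of the proteases that activate the channel. Its levels were -5.99, -7.09, -5.71 and -6.13 after aldosterone and -6.71, -6.31, -6.52 and -6.25 in the controls. The highest and the lowest value of all 8 both came from aldosterone lungs, replicates 3 and 2. The log2 difference was 0.22 ± 0.28 (SE, n = 4 per group, adjusted p in limma 1.0), with a 95% interval from 0.745-fold to 1.81-fold, the widest in fold of the channel probes at the upper end. Single lungs moved this value: without the aldosterone lung of replicate 2 the difference was 0.50, with an unadjusted 95% interval from 0.09 to 0.91 (adjusted p in limma 0.999), and without that of replicate 3 it was 0.04. The signal of SCNN1G was 10.7 to 26.8, and the error that the scanner software assigns to its spots had a median of 22.2% of the signal and reached 34.7%. The 95% interval of SCNN1G over all 8 lungs, 0.745-fold to 1.81-fold, is unadjusted and is no detection limit. With the replicate number as a block it was 0.725-fold to 1.86-fold.

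**Figure D1:**
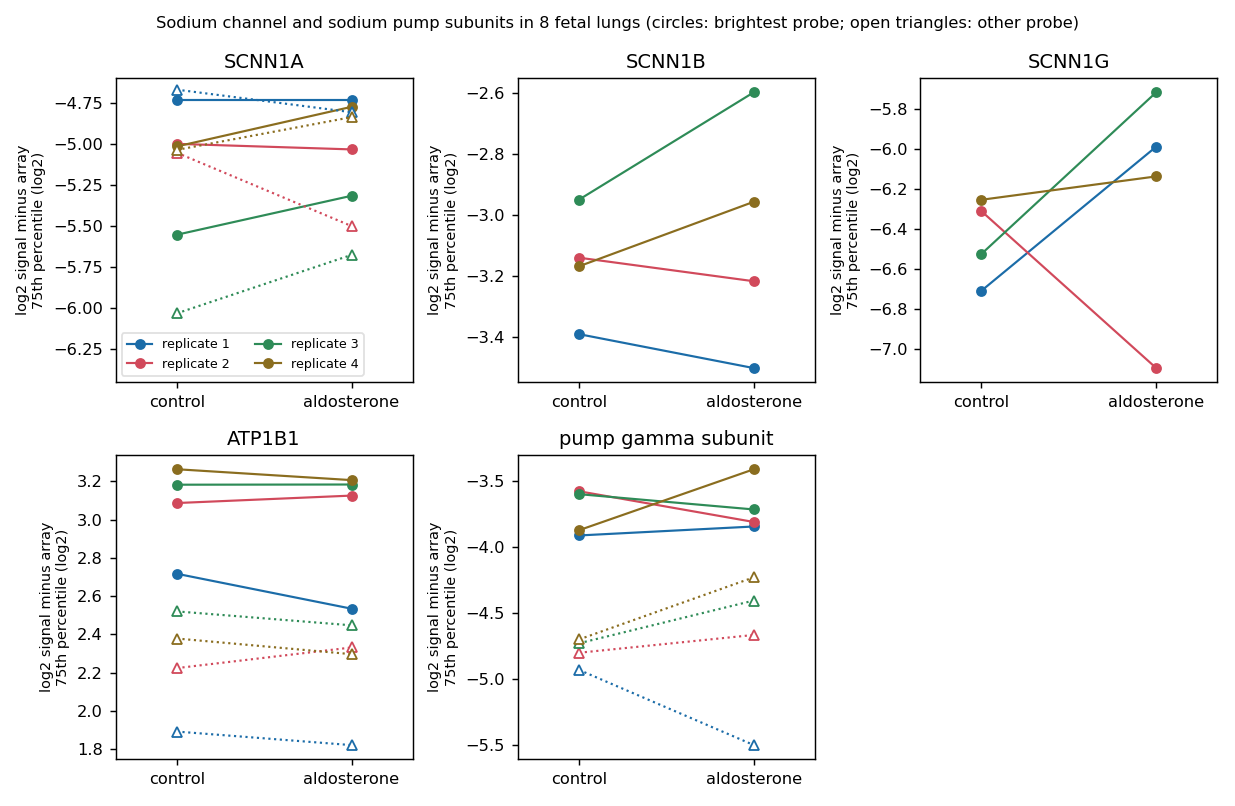
Level of each subunit by group, as the log2 signal less the 75th percentile of the array, with 1 point per lung and a line joining lungs of the same replicate number. Circles are the brightest probe of the gene and open triangles the other probe; the vertical scale differs between panels, and each panel shows overlapping groups, with lines that rise and lines that fall.

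ATP1B1, the beta subunit of the pump, had a signal of 9848 to 12880 on its probe at 2509. That probe had levels of 2.53, 3.13, 3.18 and 3.21 after aldosterone and 2.72, 3.09, 3.18 and 3.26 in the controls. The levels of the probe at 2449 were 1.82, 2.33, 2.45 and 2.30 after aldosterone and 1.89, 2.22, 2.52 and 2.38 in the controls. On both probes, and in both groups, replicate 1 was the lowest, while the other 3 replicates of each group lay closer to one another than to it.

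The ATP1B1 log2 difference was -0.05 ± 0.20 at 2509, with a 95% interval from 0.708-fold to 1.32-fold, and -0.03 ± 0.19 at 2449 (SE, n = 4 per group, adjusted p in limma 1.0 for both). Both probes read alike across the arrays: the level at 2449 less that at 2509 ran from -0.91 to -0.66, with an SD of 0.09 over the 8 arrays, against an SD of 0.22 for the SCNN1A probes. The interval at 2509 under the replicate block was 0.804-fold to 1.16-fold, the narrowest at its upper end of the members.

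The gamma subunit adjusts the affinity of the pump for its ions. Its probe at 191 had levels of -3.84, -3.81, -3.72 and -3.41 after aldosterone and -3.91, -3.58, -3.60 and -3.87 in the controls. The probe at 195 had levels of -5.50, -4.67, -4.41 and -4.23 after aldosterone and -4.93, -4.80, -4.73 and -4.70 in the controls. The probe at 195 spread more widely in the aldosterone group (SD 0.564) than in the controls (SD 0.103), with replicate 1 lowest. The log2 differences were 0.05 ± 0.15 and 0.09 ± 0.26 (SE, n = 4 per group, adjusted p in limma 1.0 for both). The level at 191 less that at 195 ran from 0.69 to 1.66 over the 8 arrays, highest in the aldosterone lung of replicate 1, although the probes share 56 bases.

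**Figure D2:**
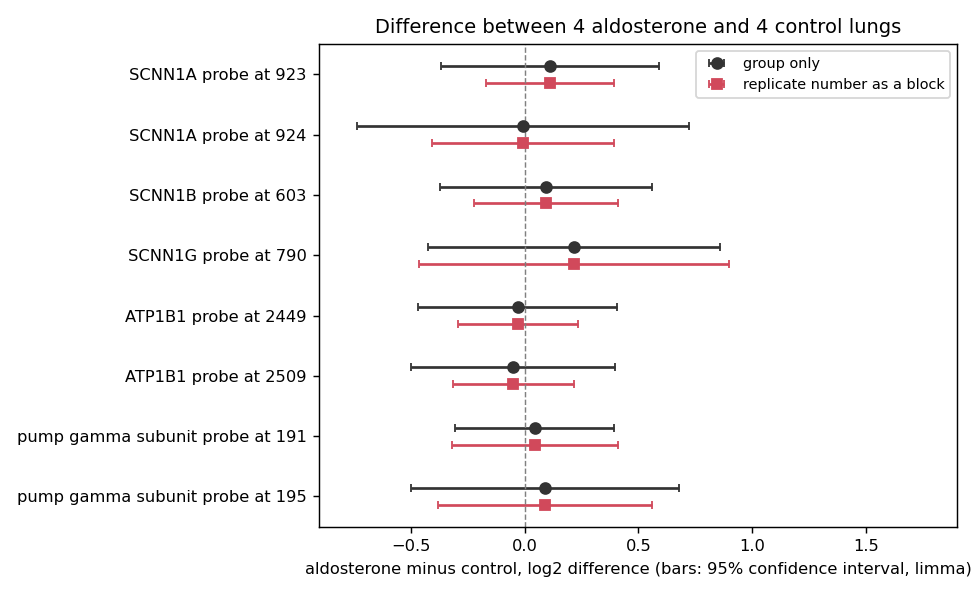
Aldosterone minus control on the log2 scale for the 8 member probes, with bars for the 95% confidence interval in limma; black circles are the comparison of the groups and red squares the same with the replicate number as a block (4 lungs per group). Every interval includes 0, and the block narrows that of ATP1B1 at 2509 to between -0.32 and 0.21.

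**Figure D3:**
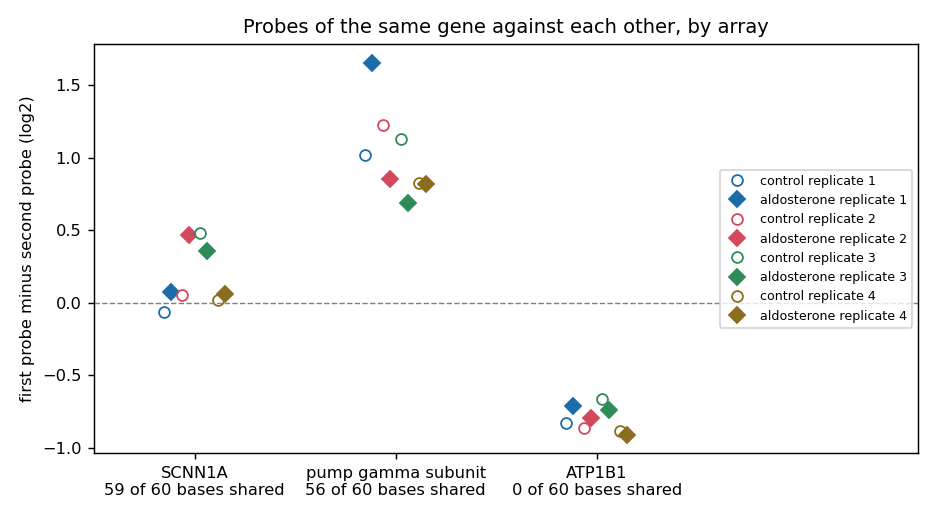
Difference between 2 probes of the same gene on each array, as log2 level of the probe nearer the start of the transcript less that of the other; open circles are control lungs, filled diamonds aldosterone lungs, and colours the replicate number. The ATP1B1 values lie between -0.91 and -0.66, while 3 arrays stand apart for SCNN1A at 0.36 to 0.48 and 1 for the gamma subunit at 1.66.

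The members differed in how far they followed the replicate number. After the group means were removed, the share of the remaining spread that followed the replicate number was 97.2% and 97.1% for the ATP1B1 probes, 94.3% and 88.2% for SCNN1A, and 86.0% for SCNN1B. It was 33.2% for SCNN1G and 34.1% and 67.6% for the gamma subunit, and the median over all probes was 71.8%, with quartiles of 51.8% and 85.9%. The share of 5 of the 8 member probes was above that median, and SCNN1G and the gamma subunit at 191 lay below the lower quartile. For ATP1B1 at 2509, 3.49% of all probes had a larger share, and for SCNN1A at 923, 8.66%. Averaged over both lungs of a number, SCNN1A at 923 ran from -5.44 in replicate 3 to -4.73 in replicate 1, a range of 0.706 on the log2 scale. SCNN1B ran over 0.671, from -3.45 in replicate 1 to -2.77 in replicate 3. The median of this range over all probes was 0.528.

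Other values are given here by replicate number as measured, and not all of them kept the same order in both groups. The cell markers shown come from a longer set of lists. Same-numbered arrays lay side by side on the slide, so twin set and place on the slide cannot be told apart. Both arrays of replicate 1, where ATP1B1 was lowest, had the highest 75th percentiles, 10.73 and 10.70. Of 9 type II cell markers 4 were on the array, and their mean level ran from 5.54 to 6.37 after aldosterone, lowest in replicate 1, and from 5.84 to 6.46 in the controls, with replicate 1 at 5.87 and replicate 2 lowest. Of 5 red blood cell markers 3 were on the array, and their mean level in replicates 1 to 4 was -0.52, 2.01, 0.98 and -0.80 after aldosterone and 0.18, 1.95, 2.00 and 0.05 in the controls, so replicates 2 and 3 were the higher ones of each group. The 2 of 7 type I cell markers on the array had mean levels of 0.93, 0.38, 0.91 and 1.21 after aldosterone and 0.95, 0.62, 0.87 and 1.28 in the controls, with replicate 2 lowest and replicate 4 highest in each. Their part in the order of the replicates was not tested.

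By slide row, every member probe but ATP1B1 at 2509 gave different signs. In the upper row, which held replicates 1 and 2, the log2 differences were -0.02 for SCNN1A at 923, -0.29 at 924, -0.09 for SCNN1B and -0.03 for SCNN1G. In the lower row, with replicates 3 and 4, they were 0.24, 0.28, 0.28 and 0.46 in the same order. The change of sign between the rows was not tested, and each value rests on 2 lungs per group. The gamma subunit went from -0.08 to 0.17 at 191 and from -0.22 to 0.40 at 195. ATP1B1 went from 0.02 to -0.08 at 2449, and at 2509 gave -0.07 and -0.03.

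Ratios between subunits were taken within each array on the brightest probe of each gene, which removes any scaling of the array, and only their changes between lungs are read. None of the 6 ratios among SCNN1A, SCNN1B, SCNN1G and ATP1B1 passed the test between the groups (exact two-sided permutation test, smallest adjusted p = 0.943, where 4 lungs against 4 allow no unadjusted p below 0.0286). SCNN1A over SCNN1B changed by 0.02 on the log2 scale (exact p = 0.886). SCNN1B over ATP1B1 changed by 0.14 (exact p = 0.371) and SCNN1G over ATP1B1 by 0.27 (exact p = 0.457). SCNN1A over ATP1B1 changed by 0.16, SCNN1A over SCNN1G by -0.10 and SCNN1B over SCNN1G by -0.12, with exact p-values from 0.657 to 0.943.

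The alpha to beta ratio of the channel varied between replicate numbers while staying close within them. SCNN1A over SCNN1B was -1.23, -1.82, -2.72 and -1.82 in the aldosterone lungs of replicates 1 to 4. The control lungs gave -1.34, -1.86, -2.60 and -1.85, in the same order. Same-numbered lungs differed by -0.11 to 0.11, while the number means ran from -2.66 in replicate 3 to -1.28 in replicate 1. Of the spread within groups 99.3% followed the number, where the other ratios gave 39.1% to 97.6%. The share was 94.3% for SCNN1A at 923 and 86.0% for SCNN1B alone. Ratios of other probes on the array are not given for comparison, so this share is not shown to be particular to the channel. The signal at 923 was only 30.1 to 64.1. In replicate 2 the probe at 924 read lower than that at 923 by 0.47 in the aldosterone lung and by 0.05 in the control. With the probe at 924 the lungs of replicate 2 were therefore further apart in this ratio. SCNN1A and SCNN1B lay at opposite ends in replicates 1 and 3, though replicate 2 was below replicate 4 in the number means of both, and the SD of their ratio over the 8 arrays, 0.528, was larger than that of SCNN1A (0.294) or SCNN1B (0.282) alone. SCNN1B over ATP1B1 had an SD of 0.197, smaller than that of SCNN1B or ATP1B1 (0.264) alone, as both were lowest in replicate 1.

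**Figure D4:**
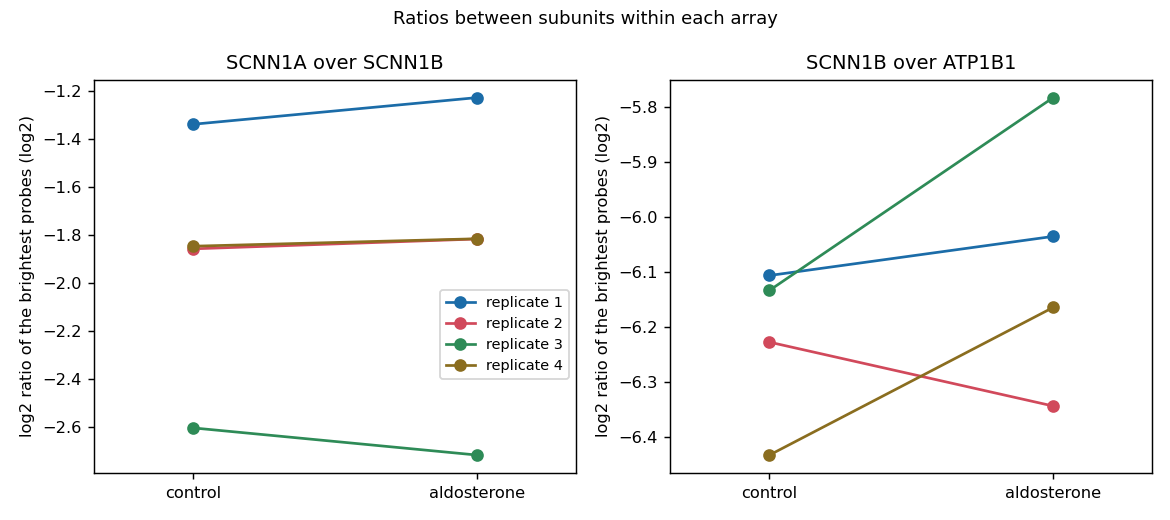
Log2 ratio of SCNN1A over SCNN1B (left) and of SCNN1B over ATP1B1 (right) within each array, by group, on the brightest probes (SCNN1A at 923). There is 1 point per lung, and a line joins lungs of the same replicate number. On the left the lines lie apart by number, from about -2.7 in replicate 3 to -1.2 in replicate 1, and are nearly level; on the right all 8 values lie between -6.43 and -5.78, with 3 lines that rise and 1 that falls. The vertical scale differs between panels.

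Other genes of sodium and water handling were taken from 6 lists holding 81 genes, of which 19 were tested, the named subunits included. None passed limma's adjusted threshold, 8 means were higher and 11 lower after aldosterone, and the median log2 difference was -0.05. At an unadjusted p under 0.05 there were 2 of 19, beside 1.87% of all probes: AQP1, the water channel of capillary endothelium, and PRKAA2, part of the AMP-activated kinase that lowers channel activity. AQP1 had levels of -0.99, -0.53, -0.67 and -0.86 after aldosterone and -1.01, -1.49, -1.23 and -1.55 in the controls. The groups did not overlap, though only narrowly, at -0.99 against -1.01 in replicate 1 (0.855% of all probes lay wholly above). It was higher after aldosterone in all 4 same-numbered pairs, beside 7.67% of all probes. PRKAA2 had levels of -7.17, -6.67, -6.50 and -6.30 after aldosterone and -6.61, -5.27, -5.86 and -5.57 in the controls, with overlap between the groups. It was lower after aldosterone in all 4 pairs, beside 5.64% of all probes. Both genes were singled out by their unadjusted p, so these counts from the same values are no separate support. With the replicate block, neither gene passed the adjusted threshold in limma. PRKAA2 was well above background on 6 of the 8 arrays.

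Among the regulators of the channel, 4 of 25 listed genes were tested, with 2 higher and 2 lower means. PLAU, the protease that activates plasminogen, differed by 0.46 ± 0.26 on the log2 scale (limma SE, n = 4 per group). FURIN, the protease that cuts the channel on its way to the membrane, differed by 0.12 ± 0.20. ADRB1, the beta-1 adrenergic receptor, gave -0.22 ± 0.30. Of the corticosteroid receptors and enzymes 5 of 6 were tested, with 1 higher and 4 lower means. The mineralocorticoid receptor NR3C2, through which aldosterone acts, had levels of 0.47, 0.85, 0.85 and 0.52 in the aldosterone lungs of replicates 1 to 4 and 0.51, 1.06, 1.41 and 0.47 in the controls, with replicates 1 and 4 the lower ones of each group. Of other ion and water transporters 6 of 25 were tested, with 2 higher and 4 lower. A further 4 transporters were on the array but too dim to test, the sodium-proton exchanger SLC9A3 among them.

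For each of SCNN1A, SCNN1B, SCNN1G and ATP1B1, up to 3 named genes with the most similar levels across the 8 arrays were picked by Pearson's r among 686 genes. These values describe 8 arrays that share a slide and 4 replicate numbers, and picking the highest of 686 makes them large. SCNN1A was most like ME1, the cytosolic malic enzyme (r = 0.950, Spearman's rho = 0.881), followed by the copper pump ATP7B (r = 0.891) and the small heat shock protein CRYAB (r = 0.880). SCNN1B was most like the growth factor IGF2 (r = 0.922, rho = 0.762), BCKDHA, of branched-chain amino acid breakdown (r = 0.916), and TPT1 (r = 0.903). SCNN1G was most like PANK2, of coenzyme A synthesis (r = 0.851, rho = 0.810), FGF18 (r = 0.844) and the tight junction protein TJP1 (r = 0.835).

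ATP1B1 was most like SFTPC, surfactant protein C, the marker of alveolar type II cells (r = 0.958, rho = 0.905). SFTPC had levels of 7.97, 8.57, 8.67 and 8.60 after aldosterone and 8.20, 8.35, 8.55 and 8.61 in the controls, so replicate 1 was the lowest of each group here too. The other 3 type II genes, SFTPA1, SFTPB and SFTPD, were also lowest in replicate 1 after aldosterone, but in the controls each was lowest in replicate 2. Next came TSHR (r = 0.954, rho = 0.833), which was well above background on 5 of the 8 arrays. None of the genes named here was among the 3 most similar of more than 1 of these subunits.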

How the data were processed

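Lung RNA of 4 aldosterone-infused and 4 control fetuses was measured on 1-colour Agilent arrays. The scanner files deposited by the authors give a linear intensity per spot, made with Agilent Feature Extraction 10.1.1.1 per the submitters' processing notes, and already background-subtracted per the file headers. A deposited table of log2 values from the authors differed from log2 of the processed intensity by 1 constant per array, and served as an alternative.

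The processed signals of 15208 non-control spots were put on a log2 scale and centred on the 75th percentile of their array. Spots with outlier flags (74 values) were left out, and spots of a probe were averaged. Probes that 4 or more of the 8 arrays showed well above background were tested with limma 3.58.1 (R 4.3.3; two-sided), and p-values were adjusted over 12170 probes by the Benjamini-Hochberg method against a threshold of 0.05. The limma step was tested on simulated data with every array drawn independently. Those data lack the spread shared by replicate number, so the test does not cover it. Ratios were tested with scipy 1.17.1 by exact permutation. Names came from the RefSeq gene table of ARS-UI_Ramb_v3.0, used for names alone: 1351 probes carried 840 symbols. Where several probes stood for a gene, the brightest on average was used.

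Groups and replicate numbers came from the labels, which describe twins without saying that the number marks the set. After group means were removed, same-numbered lungs correlated at 0.446, 0.275, 0.28 and 0.538 over 12148 probes, and others at -0.449 to 0.203. Every same-numbered pair exceeded 0.1, which was taken as pairing, though different-numbered pairs did so too, at 0.203 and 0.11. Same-numbered arrays lay side by side on the slide, so the correlations do not establish that the number marks the twin set. All arrays shared 1 slide and scan day; the row of the slide was an alternative.

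Named were all members; up to 5 tested genes of each of 6 lists by smallest unadjusted p, of which those not given with values are counted; and up to 3 genes most correlated with each of 4 subunits. A few genes that these rules select are not reported here and are left out of the counts of members and lists. The members and lists were chosen with earlier results of these data known. Alternatives were the centring, quantile normalization, normexp (offset 50) with quantile normalization, the authors' values, the replicate and row blocks, array weights, the background filter, the probe, and leaving out each lung.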

Additional observations from a re-analysis of the deposited data

Results flagged for a closer look

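The aldosterone lung of replicate 1 had the lowest ATP1B1 level of its group on the probe at 2509, at 2.53, while the other 3 aldosterone lungs lay between 3.13 and 3.21. Its gap to the nearest lung was 0.880 of the range of the group, above the critical value of Dixon's test for 4 samples. This was 1 of 28 groups tested, and chance gives such a result in about 1 of 20 groups. Without this lung the log2 difference of ATP1B1 at 2509 was 0.11 in place of -0.05, and at 2449 it was 0.11 in place of -0.03. The control lung of replicate 1 was also the lowest of its group, at 2.72 on the probe at 2509 and 1.89 at 2449. It stayed in when the aldosterone lung was left out, so replicate 1 was then in the control group only. At 2509 the same-numbered lungs of replicates 2 to 4 differed by 0.04, 0.0004 and -0.06.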

How the results depend on the processing

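No member or listed gene passed an adjusted p of 0.05 in limma under any alternative run. Nor did any ratio. In the main setting a single ratio at the smallest exact p of 0.0286 would not pass after adjustment over the 6 ratios. For ratios several alternatives could not pass at all. Their smallest exact p is 0.125 with the replicate block, 0.0556 with the row block, 0.333 within a row and 0.0571 with a lung left out. These alternatives show nothing about stability. Over all probes 0 were called in each, while the number with an unadjusted p under 0.05 was 228 with the group alone, 539 with the replicate number as a block, 343 with the slide row as a block, 1282 with array weights and 143 to 422 with a lung left out. With 1 lung of each group per number, the replicate block cannot move a log2 difference of the members (SCNN1A 0.11, ATP1B1 -0.05). It gave adjusted p-values in limma of 0.886 to 0.993. It changed no call. With the background filter set to all 8 arrays SCNN1G had no value, and array weights were not run for ratios.

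SCNN1G over ATP1B1 kept its sign in 17 of 17 alternatives (0.02 to 0.59). Among these, median centring, the authors' values and the replicate and row blocks left it at 0.27. They cannot move a group difference of a within-array ratio, so they say nothing about its stability. Every other difference and ratio changed sign in at least 1 alternative, and the cause was not tested. Leaving out 1 lung keeps its replicate number in 1 group only, so those values also carry differences between replicate numbers. With quantile normalization ATP1B1 at 2449 gave 0.0014. With normexp SCNN1A at 923 gave -0.0167, the gamma subunit at 191 -0.0104 and SCNN1A over SCNN1B -0.0356. SCNN1G kept its sign with normexp but fell to 0.02 ± 0.09 (limma SE) from 0.22. Its ratio to ATP1B1 fell to 0.07 from 0.27. The authors' values put the gamma subunit at 191 at -0.0135. Array weights gave 0.0518 and 0.0226 for ATP1B1 at 2449 and 2509 and -0.0317 for the gamma subunit at 191. The other SCNN1A probe gave -0.0071 for the gene and -0.10 for its ratio to SCNN1B.

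In the upper slide row the reversed values were -0.0171 for SCNN1A at 923, -0.0937 for SCNN1B, -0.0317 for SCNN1G, 0.0183 for ATP1B1 at 2449, -0.0825 and -0.217 for the gamma subunit at 191 and 195, 0.0147 for SCNN1A over SCNN1G and -0.0221 for SCNN1B over ATP1B1. In the lower row they were 0.28 for SCNN1A at 924 and -0.0411 for SCNN1A over SCNN1B.

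With each lung left out in turn, the values ran from -0.0486 to 0.23 for SCNN1A at 923, -0.29 to 0.17 at 924, -0.0629 to 0.24 for SCNN1B, 0.04 to 0.50 for SCNN1G, -0.15 to 0.11 and -0.17 to 0.11 for ATP1B1 at 2449 and 2509, and -0.0495 to 0.10 and -0.0671 to 0.36 for the gamma subunit at 191 and 195. The ratios ran from -0.0762 to 0.39 for SCNN1A over ATP1B1, -0.21 to 0.29 for SCNN1A over SCNN1B, -0.37 to 0.19 for SCNN1A over SCNN1G, 0.04 to 0.23 for SCNN1B over ATP1B1 and -0.36 to 0.10 for SCNN1B over SCNN1G. Signal over background limits SCNN1G, and 4 lungs a group limit all values.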

Other observations

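A probe without a gene name shares a run of 54 bases with the ATP1B1 probe at 2449, on the opposite strand. It was well above background on all 8 arrays, with levels of 0.64, 0.80, 0.43 and 0.77 in the aldosterone lungs of replicates 1 to 4 and 0.55, 0.65, 0.61 and 0.86 in the controls. Its log2 difference was -0.0062 ± 0.14 (SE, n = 4 per group, adjusted p in limma 1.0). Its lowest aldosterone lung was that of replicate 3, where ATP1B1 was lowest in replicate 1. In the controls both it and ATP1B1 were lowest in replicate 1. Which strand the underlying transcript comes from is not settled by the files used here.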
